A study of Homo sapiens with 10 samples.

Results

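The sites described here are peaks of N6-methyladenosine (m6A), a methyl mark on adenosines of RNA, that were called under hypoxia and under normoxia at the same bases. They were mapped by MeRIP-seq, in which RNA fragments are pulled down with an antibody against m6A and sequenced, in samples labelled as V16A cells, a line of castration-resistant prostate cancer. The authors deposited 1 peak list for the hypoxia condition and 1 for the normoxia condition. The common sites were chosen by these called peaks alone: a normoxia condition peak was taken where its exon blocks shared at least 1 base, on the same chromosome and strand, with a hypoxia condition peak. This chose 734 of the 2285 normoxia condition peaks, 32.1% (exact binomial 95% interval 30.2 to 34.1), and left 1551 other normoxia peaks. The common sites overlapped 705 of the 7669 hypoxia condition peaks, 9.19% (8.56 to 9.86). All intervals here cover counting error only, and presence in the condition lists and the extent of the overlap, which the choice used, are given as description without a test.

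Each of the 5 pulled-down libraries also had a peak list of its own. The hypoxia libraries held 2879 peaks (replicate 1) and 6621 peaks (replicate 2), the library named for EU and 40 min held 5044, and the normoxia libraries held 212 (replicate 1) and 1563 (replicate 2). EU is read here as ethynyl uridine, a nucleoside that is built into newly made RNA. The labels name no oxygen condition for the EU library, no oxygen level or duration for the others, and no separate cultures for the replicates. All samples carry the same line, V16A, with no further allele or agent in the labels, and 5 inputs were also sequenced, whose data were not analysed here. The lists of both hypoxia libraries, the EU library and normoxia replicate 1 held peaks in marker genes of T and NK cells, which go against the labelled cell type, and that of normoxia replicate 2 held none. The labels name no other cells, and where this RNA came from was not tested. A list says whether a peak was called, not how much of a transcript was methylated, so a site without a called peak is not shown to be unmethylated.

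The mark is set on newly made transcripts by a methyltransferase complex around METTL3 and METTL14, mostly at adenosines in the DRACH motif, and is known to concentrate in long internal exons and around stop codons. Proteins of the YTH family bind it and are known to affect splicing, export, translation and decay. Hypoxia changes transcription through the HIF factors, and by its title the study asked about genes of T cell activation and the mark on nascent RNA in that condition.

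Short stretches of common sites are shown first, since the motif is what the antibody's target is known to sit in. Promoter windows of RefSeq (GRCh38.p14, 250 bases before to 50 after each gene start) were the sequence at hand, and they covered at least 30 bases of 16 of the 690 common sites that were searched. Capitals mark a DRACH motif on the strand of the peak, that is A, G or T, then A or G, then A, then C, then A, C or T. Of the 5 stretches that held it, 4 are each printed 5′ to 3′ for 30 bases.
NKG7, chr19:51372622-51372651, minus strand: tcttgggctctaaGGACCcaggagtctggg
SBNO2, chr19:1168737-1168766, minus strand: ccgccatggccccGGACCgccgtcggctgc
REPIN1, chr7:150372897-150372926, plus strand: cgacgacgaggagAGACTcctggcccacca
HIST1H3G, chr6:26271364-26271393, minus strand: tagtctgagatggcccgcaccaagcAGACT
The motif was on the strand of the peak in 5 of these 16 sites (31.3%, interval 11.0 to 58.7) and on the other strand in 10. The same stretch of all 35116 windows held it in 58.5% on average at a value near the upper bound of that interval. The windows lie at gene starts, where few common sites are, and the count says nothing of the rest. A window need not be that of the gene named for the peak. The SBNO2 and REPIN1 stretches lie in windows of LOC102725180 and REPIN1-AS1, which are on the opposite strand. These 4 sites were also called in unequal sets of libraries. The NKG7 site had a peak in every library other than normoxia replicate 2, the HIST1H3G site in every library other than hypoxia replicate 1, and the SBNO2 site in none of the 5.

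The overlap of the condition lists at common sites was partial at most of them. The bases shared with the best matching hypoxia peak had a median of 101 (range 1 to 888). Counted separately, with shared bases summed over all hypoxia peaks at a site and capped at its width, the median share covered was 80%. A base under more than 1 hypoxia peak would count for each. By that count 327 sites (44.6%, interval 40.9 to 48.2) were covered whole. Only 30 sites (4.09%) had the same start and end in both lists, among them sites of ARHGDIB, EXOC8, a subunit of the exocyst, and ARFGAP1, a GTPase-activating protein of ARF1. At the other end, 74 sites (10.1%) shared exactly 1 base, and only 1 shared 2 to 9. Steps of about 50 bases run through the overlaps, with 88 sites sharing 50 to 51 bases and 200 sharing 99 to 101. Sites just inside the threshold included those of KNOP1 at chr16:19714603-19714752, CBX2, a Polycomb subunit, at chr17:79784192-79784342, and VCPIP1, a deubiquitinase, at chr8:66634482-66634581, each sharing 1 base. Just outside it, the nearest other normoxia peaks lay 19 bases from a hypoxia peak in H2AFX, 23 in RCC2 and 45 in OXLD1, and 51 of the 1551 (3.29%) lay within 50 bases. Most common sites, 627, met 1 hypoxia peak, 100 met 2 and 7 met 3. In reverse, 594 hypoxia peaks held 1 common site and 111 held more, up to 6 in a hypoxia peak of LCP1, the actin-bundling protein L-plastin of blood cells, which was 2878 bases wide in exon blocks (chr13:46126019-46152911). At 7 sites the hypoxia peak carried another gene name.

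Common sites were wider than the rest of their list, which is tied to the choice, since a wider peak has more bases to share. Their median width in exon blocks was 198 bases (quartiles 101 and 294, range 93 to 1901), against 149 (100 and 199, range 93 to 700) for the other normoxia peaks. Widths of 400 bases or more were held by 69 common sites (9.40%) and 36 other normoxia peaks (2.32%). The hypoxia peaks over common sites had a median of 249 bases, against 150 for the other hypoxia peaks, and at 462 sites (62.9%) the hypoxia peak was wider than the normoxia peak, at 192 (26.2%) narrower. The widest common site was in TNKS1BP1, a binding partner of tankyrase, with 1901 bases in 2 blocks at chr11:57308681-57311262. FOXA1, a forkhead factor that opens chromatin, came next with 1342 bases at chr14:37591375-37593879. They were followed by MALAT1, a nuclear long non-coding RNA, with 946, ACTB, cytoplasmic actin, with 888, and SLC35E2B with 800.

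Blocks, that is exons spanned by a peak, set the common sites apart less. Of common sites, 120 (16.3%, interval 13.7 to 19.2) had 2 or more exon blocks, against 215 other normoxia peaks (13.9%, 12.2 to 15.7). The hypoxia list differed more: 142 of its peaks over common sites (20.1%, 17.2 to 23.3) had 2 or more blocks, against 2552 of its other peaks (36.6%, 35.5 to 37.8). The 5 common sites with 4 blocks included those in ETS1, a lymphoid transcription factor, CPNE1, LCP1 and YTHDC1, the nuclear m6A reader. The sites of ETS1 and LCP1 had a peak in each library other than normoxia replicate 2, while that of YTHDC1 was called in hypoxia replicate 2 alone and shared 1 base with the hypoxia condition list.

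**Figure D1:**
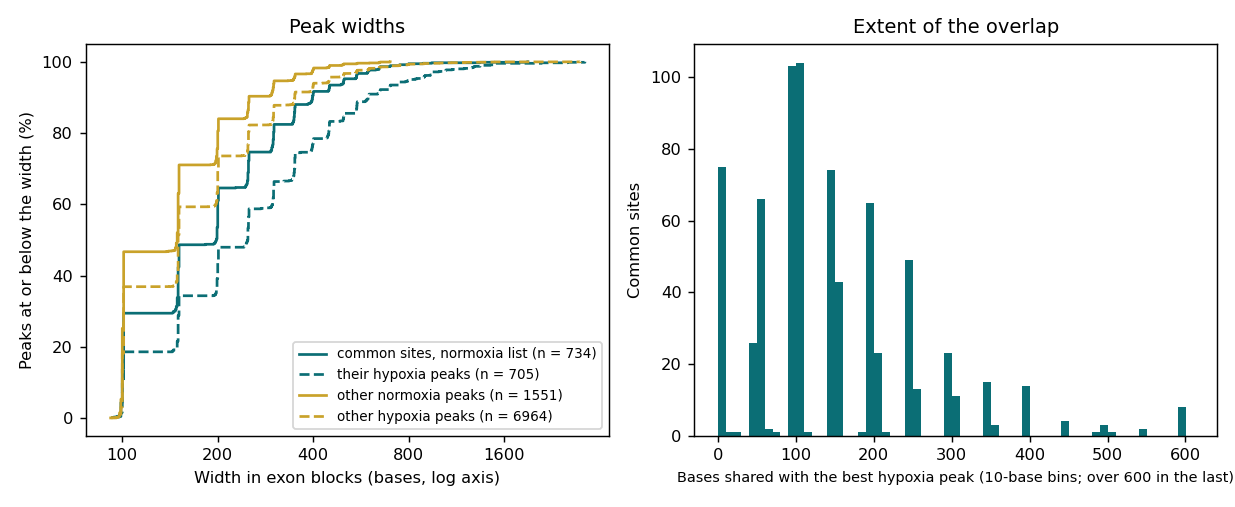
Cumulative percent of peaks by width in exon blocks (log axis) for common sites, their hypoxia peaks and the other peaks of each list, and the number of common sites by bases shared with the best matching hypoxia condition peak. Common sites reach wider sizes (median 198 bases, against 149), and the shared bases fall on steps, with 74 sites at 1 base.

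The common sites lay in 463 of the 1231 genes with a normoxia condition peak (37.6%), and 560 genes had a peak in both condition lists at any place. Thus a gene in both lists did not always hold a common site, and 168 genes held a common site beside another normoxia peak. There were 301 genes with 1 common site, and 162 genes with 2 or more held 433 sites (59.0%). EPPK1, epiplakin, an epithelial cytolinker, led with 12 sites, followed by FLNA, the actin crosslinker filamin A, with 11 and LCP1 with 7. H2AFX, the histone variant H2A.X, VCPIP1 and ZC3H4, which restrains non-coding transcription, had 6 each. Such sites are not all separate places: 53 sites in 27 genes overlapped another common site, so the 734 sites summed to 163235 bases but covered 157988 distinct ones. In EPPK1 several pairs of normoxia peaks started a few bases apart, such as chr8:143870484-143870833 and chr8:143870470-143870819, with deposited p of 0.00021 and 0.00089.

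These genes differed in which libraries had called them. EPPK1 had 4 and 21 peaks in hypoxia replicates 1 and 2, 27 in the EU library, and 0 and 16 in normoxia replicates 1 and 2. FLNA had 17 and 0 peaks in the hypoxia libraries, 11 in the EU library, and 9 and 1 in the normoxia libraries. LCP1 had 4 and 2 peaks in the hypoxia libraries, 6 in the EU library, and 5 and 0 in the normoxia libraries. Thus FLNA and LCP1 owed their normoxia support mainly to replicate 1, the smallest list, and EPPK1 its own to replicate 2, as did VCPIP1, with 0 and 7, then 7, then 0 and 6 peaks in the same order of libraries. ZC3H4 had no peak in either normoxia library, against 0 and 12 in the hypoxia libraries and 6 in the EU library, although the normoxia condition list held its 6 common sites.

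**Figure D2:**
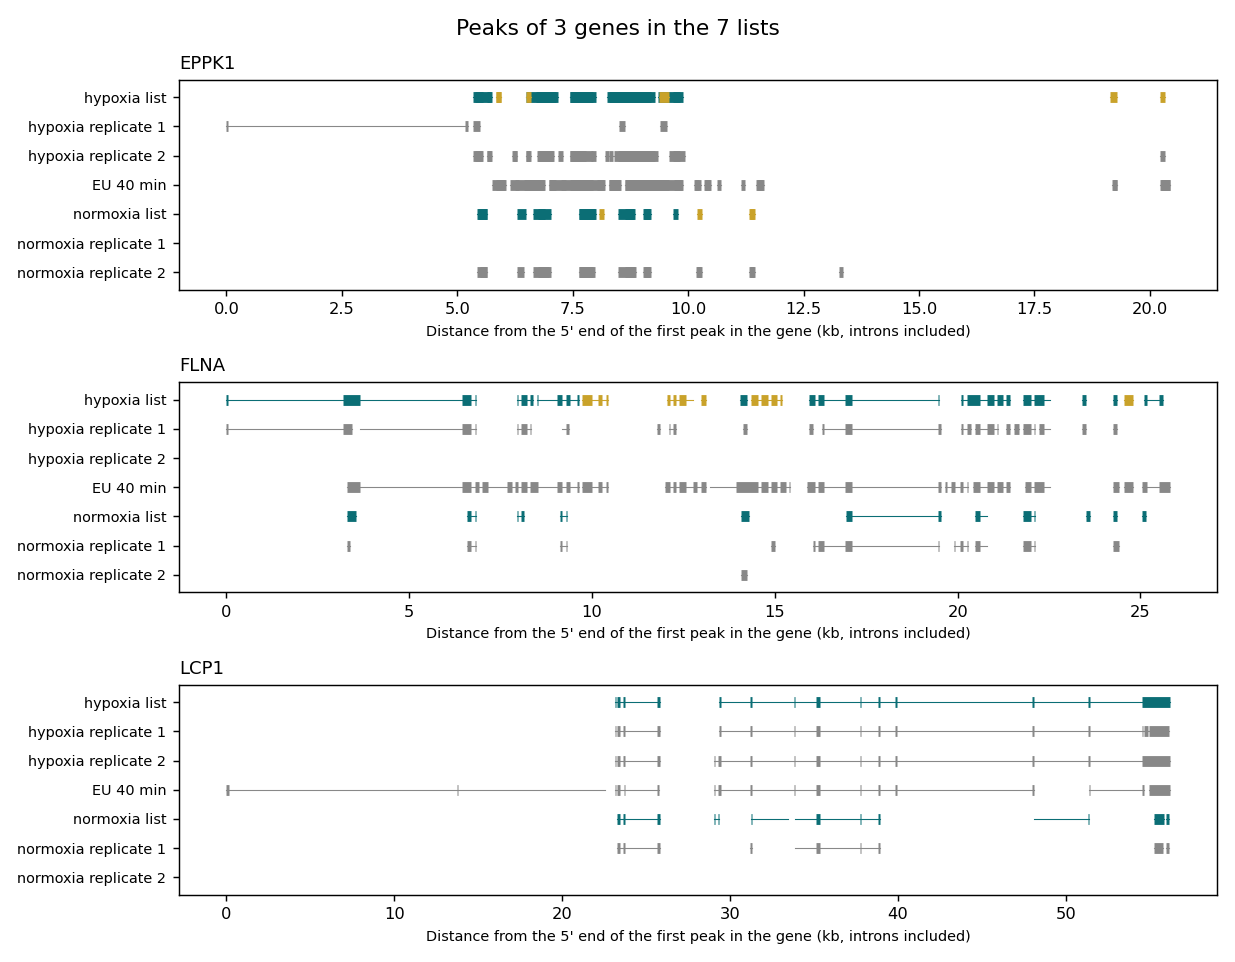
Peaks of EPPK1, FLNA and LCP1 in the 2 condition lists and the 5 libraries, drawn as exon blocks joined by thin lines, by distance in kb from the 5′ end of the first peak. Teal marks condition peaks that overlap between the lists, yellow other condition peaks and grey library peaks; hypoxia replicate 2 has no peak in FLNA, and normoxia replicate 1 none in EPPK1.

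By RefSeq, 702 sites (95.6%) had a gene that matched in name and place, and 675 of these (96.2%) were in protein-coding genes and 19 (2.71%) in long non-coding RNAs, much as among the other normoxia peaks (96.6% and 2.09%). Like the other normoxia peaks, common sites gathered toward the end of their genes. Of 694 that lay inside the gene span, 297 (42.8%, interval 39.1 to 46.6) were centred in the last 20% of the span, introns counted, against 603 of 1448 other normoxia peaks (41.6%, 39.1 to 44.2). The start of the gene set them apart more: 54 common sites (7.78%, 5.90 to 10.0) were in the first 10% of the span, against 183 other peaks (12.6%, 11.0 to 14.5). The minus strand held 515 common sites (70.2%, 66.7 to 73.5), against 954 other peaks (61.5%, 59.0 to 63.9). All 7 lists leaned to that strand, from 63.0% of peaks in the EU library to 75.9% in normoxia replicate 1, and the reason was not tested. A common site of B2M, beta-2 microglobulin, overlapped the hairpin of MIR10393.

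The libraries were then asked, site by site, whether their own list had a peak that shared at least 1 base. Hypoxia replicates 1 and 2 had 281 (38.3%) and 531 (72.3%) of the 734 common sites, the EU library 526 (71.7%), and normoxia replicates 1 and 2 108 (14.7%) and 406 (55.3%). Over all 2285 normoxia condition peaks these shares were 15.8% and 28.9% in the hypoxia libraries, 45.6% in the EU library, and 6.3% and 46.1% in the normoxia libraries. Among the 1551 other normoxia peaks they were 5.16% and 8.32% in hypoxia, 33.3% in EU, and 2.32% and 41.7% in normoxia. The hypoxia shares differ by the choice itself, as the hypoxia condition list presumably comes from the same libraries. Both normoxia libraries also had common sites more often than the other peaks of their own condition. The library lists differ in length, and the part of length in these shares was not tested. Seen from the hypoxia list, a peak over a common site was called in hypoxia replicates 1 and 2 at 38.7% and 72.8%, against 19.1% and 60.0% of the other hypoxia peaks, where all hypoxia peaks had 20.9% and 61.1%. Normoxia replicates 1 and 2 called it at 12.8% and 56.5%, against 0.388% and 1.58% of the other hypoxia peaks, where all hypoxia peaks had 1.53% and 6.62%. Here the normoxia shares differ by the choice itself, as the normoxia condition list presumably comes from those libraries.

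**Figure D3:**
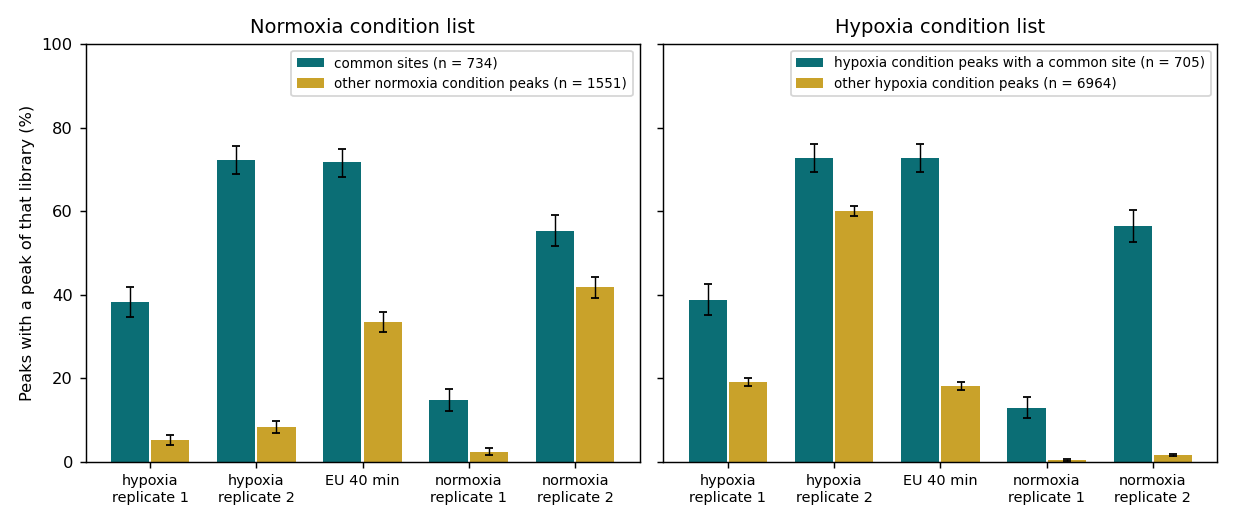
Percent of peaks that each library's own list overlaps, with exact binomial 95% intervals, for common sites and other normoxia condition peaks and for hypoxia condition peaks with and without a common site. The EU library and hypoxia replicate 2 hold 71.7% and 72.3% of the common sites, and normoxia replicate 1, the smallest list, 14.7%.

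Support from the libraries of both conditions was the most frequent case but not the rule. At least 1 hypoxia and at least 1 normoxia library had a peak at 404 common sites (55.0%, interval 51.4 to 58.7), against 102 other normoxia peaks (6.58%). Other normoxia peaks are by definition without a hypoxia condition peak, so the gaps given here between them and common sites are tied to the choice. Only hypoxia libraries had 181 sites (24.7%), only normoxia libraries 78 (10.6%), and neither 71 (9.67%), against 789 other normoxia peaks (50.9%) with neither. Both hypoxia libraries had 227 sites (30.9%), against 17 other normoxia peaks (1.10%). Both normoxia libraries had 32 (4.36%), against 11 (0.709%). Without normoxia replicate 2 the count with both conditions was 105, and without hypoxia replicate 2 it was 205. The count with neither was 146 without normoxia replicate 2 and 176 without hypoxia replicate 2. All 4 had 19 sites (2.59%) and all 5 libraries 17 (2.32%), each against 1 other normoxia peak (0.0645%). None of the 5 had 41 common sites (5.59%), against 638 other peaks (41.1%). The most frequent combination among common sites was hypoxia replicate 2 with EU and normoxia replicate 2, the longer list of each condition. It had 148 common sites (20.2%) and 34 other normoxia peaks (2.19%). The same libraries with hypoxia replicate 1 added had 83 common sites (11.3%) and 2 other peaks (0.129%). EU with normoxia replicate 2 alone had 58 common sites (7.90%) and a larger share of the other peaks, 248 (16.0%). The combination of both hypoxia libraries, EU and normoxia replicate 1 had 42 common sites (5.72%) and 2 other peaks (0.129%).

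**Figure D4:**
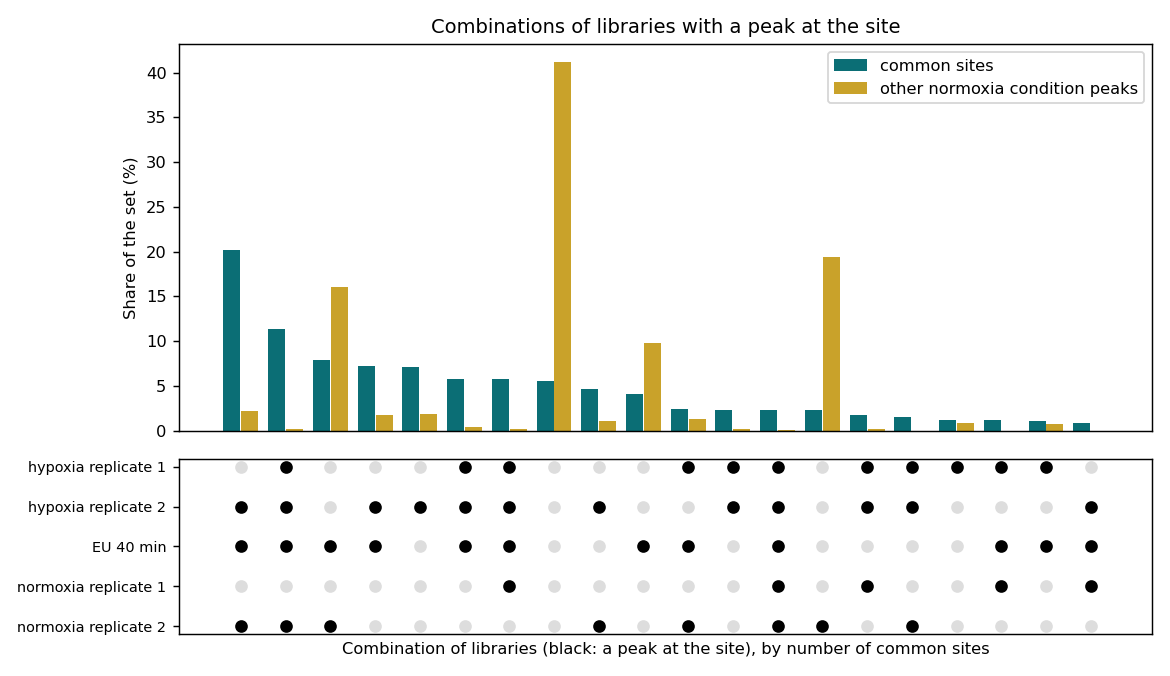
Percent of common sites and of other normoxia condition peaks with each of the most frequent combinations of libraries, where black dots mark the libraries with a peak at the site. Hypoxia replicate 2 with EU and normoxia replicate 2 leads among common sites with 20.2%, and no library at all leads among other peaks with 41.1%. The gap between these sets is tied to the choice of sites.

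The sites found in all 4 hypoxia and normoxia libraries were few. They included those in MALAT1, ACTB, FOXA1, H2AFX, the replication-dependent histone genes HIST1H3D, HIST1H3H and HIST1H4I, ARHGDIB, EID1, an inhibitor of the acetyltransferase EP300, and USP22, the deubiquitinase of the SAGA complex. No peak of hypoxia replicate 1 or of either normoxia library was named HIST1H3D, so their peaks at that site carried another gene name. Histone genes have near-identical copies among which reads may have been split. The USP22 site at chr17:21002524-21002922 had a peak in hypoxia replicate 1 at chr17:21002574-21002872 with a deposited p of 0.00039 and in replicate 2 at chr17:21002574-21003021 with 0.00062. In the EU library it was at chr17:21002524-21002972 with 2.3e-05. Its normoxia peaks were at chr17:21002524-21002872 with 4.1e-05 in replicate 1 and chr17:21002574-21002922 with 0.00042 in replicate 2. The lower coordinates of the 5 calls, their 3′ ends on this minus-strand gene, thus lay within 50 bases of each other. The upper coordinates differed more. ARHGDIB was closer still: both hypoxia libraries, the EU library and normoxia replicate 1 gave the same peak of 245 bases at chr12:14950543-14950979, while normoxia replicate 2 gave 99 bases of it. FOXA1 was not: the EU library and normoxia replicate 2 had peaks of 1442 and 1392 bases over the site, hypoxia replicates 1 and 2 150 and 249 bases, and normoxia replicate 1 101 bases.

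The reverse cases were uneven. Both hypoxia libraries and neither normoxia library had 59 common sites (8.04%), against 10 other normoxia peaks (0.645%). By deposited p the 59 were led by CLSPN, claspin, a replication checkpoint protein, VIM-AS1, WAPL, the cohesin release factor, and YWHAH, a 14-3-3 protein. Both normoxia libraries and neither hypoxia library had 3 common sites (0.409%), against 3 other normoxia peaks (0.193%). These gaps are tied to the choice of sites. The list of normoxia replicate 1 held only 212 peaks, and the part of list length in these counts was not tested. The 3 common sites were in CEBPZ, TSPYL1 and NFE2L1, a stress response transcription factor, and the EU library had all 3. The CEBPZ site at chr2:37228193-37228391 had a peak of 150 bases in each normoxia library and of 498 bases in the EU library. Sites that none of the 4 libraries had were led by KNOP1, KIAA1161, BIRC6, an inhibitor of apoptosis, and ZNFX1. Of those 71 sites the EU library had 30 (42.3%), including KNOP1 and ZNFX1.

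The EU library took no part in the choice of the sites, and it had the common sites more often than other peaks of either condition. It had a peak at 526 of 734 common sites (71.7%, interval 68.3 to 74.9) and at 517 of 1551 other normoxia peaks (33.3%, 31.0 to 35.7), a difference of 38.3 percentage points. Seen from the hypoxia list, it had 513 of 705 peaks over common sites (72.8%) and 1258 of 6964 other hypoxia peaks (18.1%), where all hypoxia peaks had 23.1%. There is 1 EU library, so the difference has no replicate check. Width moved with it. Among sites narrower than 120 bases the EU share was 127 of 216 (58.8%) for common sites and 178 of 724 (24.6%) for other peaks. Among those of at least 400 bases it was 66 of 69 (95.7%) and 27 of 36 (75.0%), and common sites were higher in the 3 classes between. The intervals overlapped in the widest class alone, but they treat sites as independent, although many share a gene. Within the 168 genes that hold both kinds, a comparison chosen after seeing the data, the share was 168 of 258 common sites (65.1%, 59.0 to 70.9) and 93 of 281 other peaks (33.1%, 27.6 to 38.9). Among peaks that none of the 4 other libraries had, it was 42.3% for common sites and 19.1% for other normoxia peaks. EU peaks over common sites were wide, with a median of 449.5 bases against 301 over the other normoxia peaks. With shared bases summed over the EU peaks at a site, they covered 354 of the 526 sites (67.3%) whole.

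**Figure D5:**
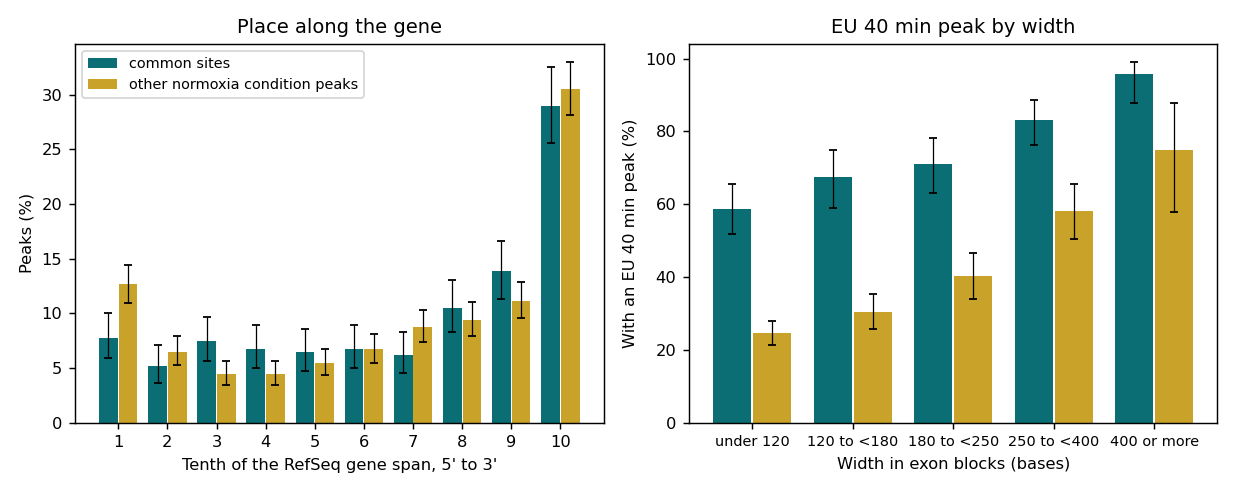
Percent of peaks by position along the RefSeq gene span in 10 equal parts, and the EU share of sites by width class with exact binomial 95% intervals, for common sites and other normoxia condition peaks. In the narrowest class the EU library has 58.8% of common sites and 24.6% of other peaks, and in the widest 95.7% and 75.0%.

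The genes of common sites differed with the normoxia library that had called them. Normoxia replicate 1 alone had 76 sites in 47 genes, replicate 2 alone 374 in 262 genes, both 32 in 25 genes, and neither 252 in 192 genes. The sites of replicate 1 alone were in hypoxia replicates 1 and 2 at 85.5% and 86.8%, against 31.3% and 73.8% for those of replicate 2 alone, while the EU shares were 75.0% and 82.1%. Markers of T and NK cells moved with this split. Of 19 such markers, 12 and 14 had a peak in hypoxia replicates 1 and 2, 14 in the EU library, 5 in normoxia replicate 1 (CD2, GNLY, GZMB, NKG7 and TRAC) and 0 in replicate 2. Of 8 prostate markers, hypoxia replicates 1 and 2 had 1 and 3, the EU library 6, normoxia replicate 1 0 and replicate 2 4, among them HOXB13 and KLK2. Of 8 epithelial markers the EU library had CLDN4 and EPCAM, hypoxia replicate 1 had none, and each other library CLDN4 alone; no list of a library held KRT8, KRT18 or CDH1. No macrophage marker of 6 had a peak in any library, and of 7 fibroblast and endothelial markers hypoxia replicate 2 had PECAM1. Prostate markers, which the label of the line calls for, were thus seen mainly in the EU library and normoxia replicate 2, and T and NK markers, which it does not, in the 4 lists other than that of normoxia replicate 2. Their part in the common sites was not tested.

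Common sites in T and NK markers were 6, in TRAC, the constant region of the T cell receptor alpha chain, NKG7 and GNLY, both of cytotoxic granules, and CD2, an adhesion receptor. These were 4 of the 5 such markers with a normoxia condition peak, where 37.6% of all 1231 genes with such a peak held a common site. Both hypoxia libraries had all 6, the EU library 5, normoxia replicate 1 all 6 and replicate 2 none. Of all 734 common sites, hypoxia replicates 1 and 2 had 38.3% and 72.3%, EU 71.7%, and normoxia replicates 1 and 2 14.7% and 55.3%. TRAC had a site of 149 bases at chr14:22551909-22552057. Its peaks were 198 and 935 bases wide in hypoxia replicates 1 and 2, 542 in the EU library and 149 in normoxia replicate 1. T cell receptor signalling genes with a common site were IL2RA and IL2RB, chains of the interleukin-2 receptor, and NFKB2, 3 of 5 with a normoxia condition peak. Their 6 sites were in hypoxia replicates 1 and 2 at 5 and 6, in the EU library at 4, and in normoxia replicates 1 and 2 at 3 and 0. Antigen presentation genes had a common site in 5 of 5 genes, among them B2M, HLA-B and HLA-C, which encode chains of class I molecules, and CD74, the class II invariant chain. Their 19 sites were in each hypoxia library at 18, in the EU library at 13, and in normoxia replicates 1 and 2 at 11 and 1. The class I genes share near-identical stretches, among which reads may have been split.

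The lists that follow are read beside the 734 common sites, of which hypoxia replicates 1 and 2 had 38.3% and 72.3%, EU 71.7%, and normoxia replicates 1 and 2 14.7% and 55.3%. HOXB13, a homeobox factor of the prostate lineage, had 1 common site, which hypoxia replicate 2, EU and normoxia replicate 2 had and both first replicates lacked. The HOXB13 site at chr17:48726546-48726793 had a peak of 248 bases in hypoxia replicate 2, 447 in EU and 248 in normoxia replicate 2. CLDN4, a tight junction claudin, had 2 common sites, which hypoxia replicate 2, EU and both normoxia replicates had. ZNF genes, which encode zinc finger proteins, had a common site in 7 of the 38 with a normoxia peak (18.4%, interval 7.74 to 34.3), against 37.6% of all 1231 genes. Their 10 sites were in hypoxia replicates 1 and 2 at 0 and 8, in EU at 10, and in normoxia replicates 1 and 2 at 0 and 8. Of their normoxia peaks 72 were not common. Solute carriers had 8 of 29 (27.6%), among them SLC7A5 and SLC1A5, amino acid transporters. Chromatin and cohesin regulators had 7 of 10, with KMT2D, EP300, ARID1A and CHD8 among them, and their 16 sites were in hypoxia replicates 1 and 2 at 2 and 8, in EU at 11, and in normoxia replicates 1 and 2 at 0 and 5.

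Immediate early genes had 6 of 7, DUSP4, IER2, IER5, JUND, MYC and ZFP36L2, whose transcripts turn over fast. Their 10 sites were in hypoxia replicates 1 and 2 at 2 and 7, in EU at 8 and in normoxia replicates 1 and 2 at 0 and 7. MYC had 1 site, at chr8:127740795-127741041, which EU and normoxia replicate 2 had and neither hypoxia library did. Of m6A factors 5 of 6 had a site. They were METTL16, a methyltransferase, RBM15 and RBM15B, which guide the writer complex, and the readers YTHDC1 and YTHDF1. The sites of RBM15B and YTHDC1 each shared only 1 base with the hypoxia condition list. The 5 sites were in hypoxia replicates 1 and 2 at 1 and 4, in EU at 4, and in normoxia replicates 1 and 2 at 0 and 3. HIF targets had 2 of 2, PFKFB3, a regulator of glycolysis, and DDIT4, an inhibitor of mTORC1. The DDIT4 site at chr10:72275056-72275546 had peaks in hypoxia replicate 2, EU and normoxia replicate 2, while that of PFKFB3 at chr10:6233104-6233552 had them in both hypoxia libraries alone. VEGFA had no common site. Histone genes had 7 of 10, whose 13 sites were in hypoxia replicates 1 and 2 at 11 and 12, EU at 9 and normoxia replicates 1 and 2 at 9 and 10. Nuclear long non-coding RNAs had 3 of 4, MALAT1, NEAT1, a scaffold of paraspeckles, and NORAD. Smaller counts were 2 of 4 for splicing factors (SON and HNRNPF), 2 of 3 for translation factors (EIF4G1 and EIF3A), 2 of 5 for ribosomal proteins (RPL17 and RPL36AL), and 1 of 4 for the cell cycle (MKI67). Chaperones had 1 of 5 (SEL1L) and ubiquitin-specific peptidases 1 of 5 (USP22). With so few genes per list, most of these shares have wide intervals, and none is called different from the 37.6% of all genes.

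The median deposited p of common sites was larger than that of the other peaks in both lists. These values are the authors' and rank peaks within a list. Their median was 7e-05 for common sites in the normoxia list, against 2.8e-05 for other normoxia peaks, and 0.00034 for hypoxia peaks over common sites, against 3.6e-05 for other hypoxia peaks. Of 4 equal parts of the normoxia list from smallest to largest p, common sites made up 30.8%, 23.8%, 32.0% and 41.8%. Peaks of a gene often carry the same p, as 33.3% of normoxia condition peaks share it with another peak of their gene. By that p, clone-named genes left out, the first common sites were in MALAT1 (2e-16), RPL36AL, a ribosomal protein paralog (2.5e-12), and HIST1H1B, a linker histone (7.9e-10). The MALAT1 site at chr11:65500291-65500970 had peaks of the same 148 bases in both hypoxia libraries and normoxia replicate 1. The EU peak there held 491 bases and that of normoxia replicate 2 held 344.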

How the data were processed

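MeRIP-seq peak lists of 5 libraries and 2 conditions were used as deposited. The submitters' processing notes name STAR and hg38 without versions. How peaks were called, whether inputs and strand entered, and how the condition lists were made are not given in the sources used here. Column 5 of the 12 BED columns, from 0 to 0.013, was read as the p-value the authors deposited; the files do not name it. Reads were not used, so depth is unknown. Starts were moved to count from 1. Overlaps of exon blocks on the same strand were computed with Python 3.11.15, numpy 2.4.6 and pandas 2.3.3, and checked on simulated peaks and with bedtools 2.31.1. Exact binomial 95% intervals came from scipy 1.17.1 and figures from matplotlib 3.10.9. Gene names were matched to RefSeq (GRCh38.p14) by name and place, within 10 kb. Members, gene lists and markers were chosen with earlier results of these data known. Sites were named by rank of deposited p, library support, width, sites per gene and list. A clone-named gene and some others the rule takes are not described. No site planned for sequence lay in the promoter windows, so those the windows covered were printed, chromosome 8 left out. Gene region and motif shares over all sites were not run without a genome.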

Additional observations from a re-analysis of the deposited data

How the results depend on the processing

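Of 68 alternatives over 9 results, 60 planned and 8 chosen after seeing the data, 42 stayed near the value given, 26 moved and 0 reversed. Requiring 50% of the shorter peak moved the share of normoxia peaks that are common, 32.1%, to 27.3%, and of hypoxia peaks, 9.19%, to 7.78%. Requiring 50% of each peak left 329 sites, shares of 14.4% and 4.34%, an EU share of 42.6%, an EU difference of 27.5 points, 151 sites with libraries of both conditions, and 12.5% with 2 or more blocks. The 50% of each condition list with the smallest p left 140 sites, shares of 12.3% and 3.39%, an EU share of 59.3%, a difference of 25.3 points, 70 sites with both conditions and 27 with none of the 4 libraries. The same cut of the library lists gave 123 sites with both, 325 with none, and an EU share of 41.1% with a difference of 25.7 points. Without 1 replicate, sites with both conditions ranged from 105 (without normoxia replicate 2) to 367, with 205 without hypoxia replicate 2, and sites with none of the libraries from 71 to 176 (without hypoxia replicate 2), with 146 without normoxia replicate 2. At least 2 shared bases gave 28.9%, and only genes with both kinds of peak an EU difference of 32.0 points, both chosen after seeing the data. Shorter lists and stricter overlap lower the counts by construction. The stricter overlap also applied to matches with the EU and other library lists, and the cut of the library lists included the EU list. Matches with the EU list thus fall by construction there as well. The cause of the other changes was not tested. No paired analysis was possible because the results come from no test. The DRACH share was planned and not run, for want of a genome sequence.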
